A study of Mus musculus with 18 samples.

Results

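The early response of 1 TFEB mutant clone, #B-20, to stimulation of its B cell antigen receptor (BCR) was measured as the 2 libraries taken after 6 h against the 2 libraries of the same clone left untreated (0 h). These 4 libraries were chosen by their labels and are 4 of the 18 in the series. The cells are WEHI-231, a mouse immature B cell lymphoma line that carries IgM on its surface. The stimulated cells received 10 µg/ml of F(ab')2 fragments against mouse IgM for 6 h, and the 0 h cells none. The clone was cut with CRISPR-Cas9 and a crRNA to exon 3 or exon 5 of Tfeb and grown up from a single diluted cell. Which of the crRNAs made it is not stated, and as 1 clone it does not tell the Tfeb mutation apart from other differences of its founder cell. Parental WEHI-231 cells and a second such clone, #A-59, received the same treatment, with 2 libraries per group. The duplicates are independent experiments.

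The BCR is a membrane immunoglobulin held by the Igα and Igβ chains, which recruit the kinase Syk and pass the signal on to calcium, Ras-ERK, PI3K and NF-kB pathways. In immature B cells and in this line, BCR ligation without help from other receptors leads to growth arrest and death rather than to proliferation. TFEB is a transcription factor best known as an activator of lysosomal and autophagy genes. NF-kB factors are held in the cytosol by inhibitor proteins whose genes they themselves switch on, so that NF-kB activity is followed by its own inhibitors.

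The 0 h libraries held 15014347 and 16486797 counts on genes and the 6 h libraries 20025225 and 15733691, within the 11223588 to 29655262 of the series. Values of genes are given as counts per Mio (CPM), scaled between libraries by the TMM method of edgeR. Markers of B cells were present, and their 10 genes summed to 8340 and 8510 raw CPM in the 0 h libraries, against 7360 and 7300 at 6 h. Of 12 markers of T and NK cells, 9 had fewer than 10 counts in each of the 4 libraries, 2 of them 0 counts throughout, and Cd8b1, Lck and Zap70 made up most of a sum of 99.6 and 103 in untreated and of 130 and 113 in stimulated libraries. The 12 myeloid markers summed to between 3.56 and 4.97 raw CPM, with 5 at 0 counts throughout, and the 12 erythroid and stromal ones to between 62.3 and 74.2, with 5 at 0. The edited gene was still transcribed: Tfeb stood at 34.2 and 39.1 CPM at 0 h and at 45.4 and 50.6 CPM at 6 h (log2 difference 0.39 ± 0.11 SE, adjusted p = 0.0756). Counts over the whole gene do not show whether the message encodes a protein.

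Replicate 2 at 6 h stood apart. A set of 20 genes, each over 3 times higher there than in any other library of the series, held 4.24% of its counts, against 0.19% to 0.628% in the other 17 libraries. Among them were the ribosomal RNAs of mitochondria, mt-Rnr1 at 974 CPM against 225 in replicate 1, and mt-Rnr2 at 3800 against 824. Lars2, whose locus is known for reads of ribosomal RNA, stood at 2270 CPM in replicate 2 and at 142 CPM in replicate 1. This library also showed 24256 genes with a count, against 20932 to 22118 in the other 3. The other 6 h library did not carry these RNAs at such levels, and neither mt-Rnr1 (adjusted p = 0.198) nor Lars2 (adjusted p = 0.237) passed the test. The TMM factors of the 4 libraries lay between 0.975 and 1.02. With the 20 genes and the listed ribosomal RNAs left out, an alternative added after the data were seen, the count of changed genes described next was again 59, 58 of them the same.

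**Figure D1:**
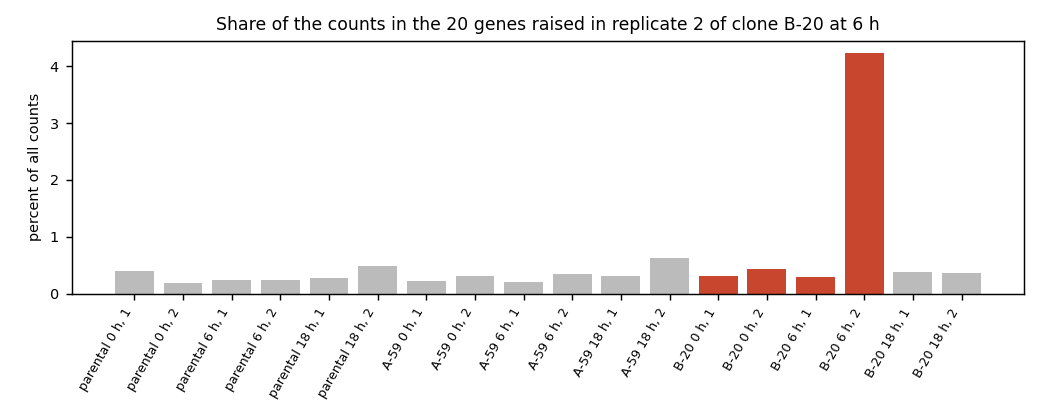
Percent of each library's counts (vertical axis) in the 20 genes raised in replicate 2 of clone B-20 at 6 h, for all 18 libraries by genotype, time and replicate number (horizontal axis), with the 4 libraries of the comparison in red. The bar of that library stands at 4.24% and the other 17 at 0.628% or less.

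At 6 h after BCR stimulation, clone #B-20 had raised 30 genes and lowered 29. Among the raised genes were Fcmr and Fcamr, which encode receptors for the constant part of IgM, the chemokine gene Ccl22, the cytokine genes Il1a and Il6, and the EGR corepressor gene Nab2. The lowered genes included the NF-kB inhibitors Nfkbia, Nfkbid and Tnfaip3, the kinase gene Pim1, cyclin D2 (Ccnd2) and the surface receptors Cd40, Fcer2a and Cd24a. A gene was called changed where edgeR's quasi-likelihood test gave a Benjamini-Hochberg adjusted p under 0.01 and the log2 fold change lay beyond 1. The 59 genes were 0.385% of the 15318 tested, with 0.196% called higher and 0.189% lower. Without the limit on the fold change, 63 genes were higher (0.411%) and 134 lower (0.875%), 1.29% in all.

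In all 59 genes both 6 h libraries lay on the same side of both 0 h libraries. Over all genes tested, this was so upward in 24.2% and downward in 22.7%. The 59 were chosen by their differences in these same libraries, which largely fixes their separation. The difference between the libraries with number 1 and that between the libraries with number 2 were both beyond 1 on the log2 scale in 50 of the 59. The median log2 difference over all genes was 0.015. The genes nearest to the limit were Tmem132a, Tmod2, Cd40 and Itm2a just inside it, at −1.02, −1.02, −1.04 and 1.04, and Sgk1, Il21r, Zc3h12c and Birc3 just outside, at 0.99, −0.99, −0.98 and −0.97.

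**Figure D2:**
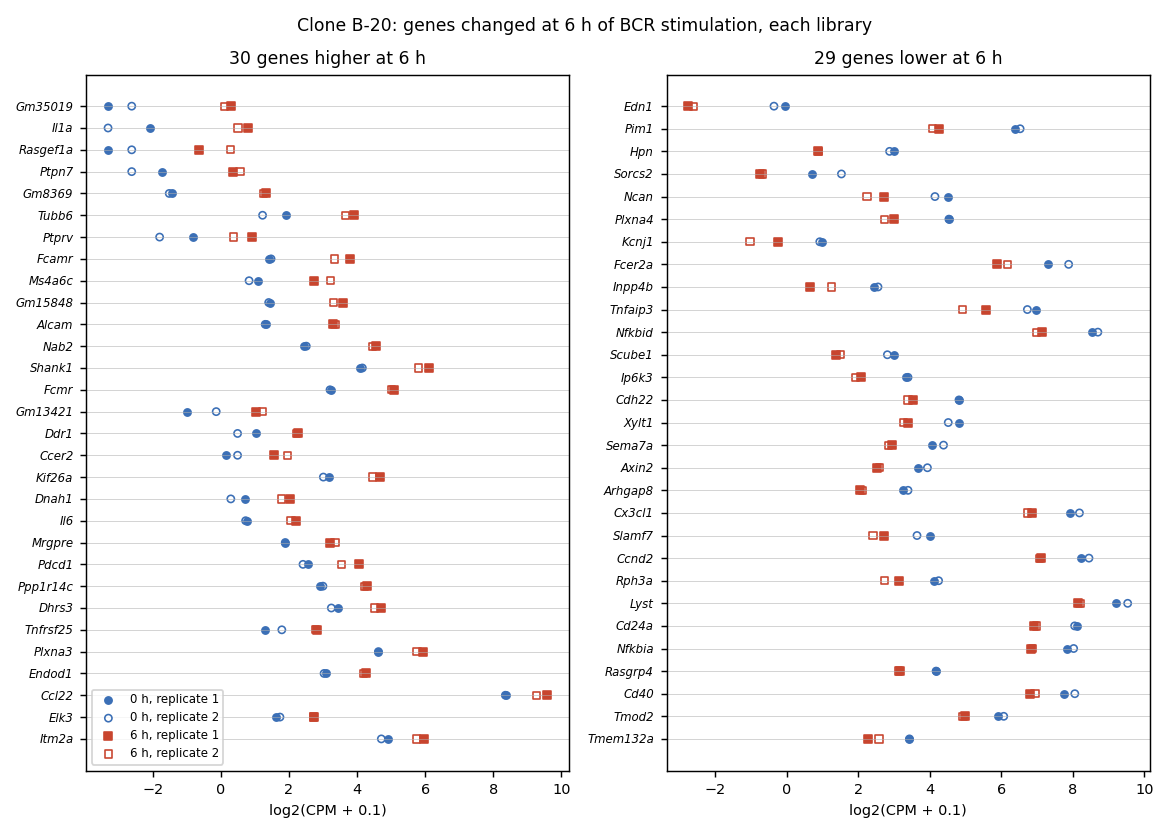
log2(CPM + 0.1) in each of the 4 libraries (horizontal axis) of the 30 genes higher (left) and the 29 lower (right) at 6 h in clone B-20, with 0 h as blue circles, 6 h as red squares, and replicate 1 filled and replicate 2 open. In all 59 genes the 2 red points lie on 1 side of the 2 blue ones.

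How many genes passed depended on which library was left out. The fit called 56 genes without replicate 1 at 0 h, 27 without replicate 2 at 0 h, 66 without replicate 1 at 6 h and 45 without replicate 2 at 6 h, and it kept 42, 26, 38 and 39 of the 59 in that order. Without a library, its group rests on 1 sample that is assumed to vary like the other groups. No gene changed direction in any of these fits. A core of 23 genes was called under all 16 alternative settings, which include these 4. The 11 raised ones were Endod1, Fcamr, Fcmr, Gm15848, Kif26a, Mrgpre, Ms4a6c, Nab2, Plxna3, Ppp1r14c and Shank1. The 12 lowered ones were Axin2, Ccnd2, Cx3cl1, Ip6k3, Ncan, Nfkbid, Pim1, Plxna4, Rasgrp4, Scube1, Slamf7 and Xylt1.

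Nfkbid, Nfkbia and Tnfaip3, which act in NF-kB feedback, fell. Nfkbid, which encodes the atypical nuclear inhibitor IκBNS, stood at 369 and 416 CPM at 0 h and at 140 and 126 CPM at 6 h. The stimulated libraries were lower by a log2 difference of −1.56 ± 0.12 (SE, adjusted p = 4.19e-07). Nfkbia, which encodes the classical inhibitor IκBα, went from 230 and 260 CPM to 113 and 117 CPM, a log2 difference of −1.09 ± 0.13 (adjusted p = 9.36e-05), and missed only the fold limit without replicate 2 at 0 h (−1.0). Tnfaip3 encodes A20, an enzyme that edits ubiquitin chains and damps the pathway upstream of the inhibitors. It stood at 125 and 106 CPM at 0 h and at 47.1 and 30.2 CPM at 6 h (−1.57 ± 0.26, adjusted p = 0.00617), but lost its call without replicate 1 at 0 h (adjusted p = 0.0479), replicate 2 at 0 h (0.0379) or replicate 2 at 6 h (0.0453). For each of these 3 genes the groups did not overlap.

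The list of NF-kB subunits and feedback genes had 19 members, all tested. None was called higher and 3 lower, beside 0.196% and 0.189% over all genes. Of the 19 log2 differences 15 lay below 0, with a median of −0.37. Over all genes 7209 of 15318 lay below 0, with a median of 0.015. Past the adjusted p but within the fold limit were Birc3 (−0.97), Nfkbie (−0.93) and Traf3. Birc3 encodes a ubiquitin ligase of the TNF receptor complexes, and it went from 174 and 182 CPM at 0 h to 89.4 and 92.4 CPM at 6 h. The subunit genes Nfkb1 (−0.52, adjusted p = 0.0136), Relb (−0.81, adjusted p = 0.0199) and Rel (−0.37, adjusted p = 0.1) did not pass.

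RefSeq promoter windows (GRCm38.p6, from 250 bases before to 50 after a start) were found for 45 of the 59 genes, 63 windows in all. They were searched on both strands for the E-box CACGTG, the CRE TGACGTCA, the AP-1 site TGAGTCA, the part GGGACTTTC of an NF-kB site and the EGR site GCGTGGGCG. The windows of 3 genes are shown because they belong to the NF-kB inhibitor genes that fell and to the cytokine gene with the largest rise. Il1a was the raised gene with the largest log2 difference that had a window, and Nfkbid and Tnfaip3 were chosen after their values were seen and because their windows hold letters searched for. The window of Nfkbia held none of them and is not shown. Capitals mark the letters found, on either strand, and each window runs 5′ to 3′ along its gene. The Il1a window is chr2:129309923-129310222 on the minus strand and holds an AP-1 site. The Nfkbid window is chr7:30422156-30422455 on the plus strand and holds a CRE, and that of Tnfaip3, chr10:19015361-19015660 on the minus strand, an AP-1 site and an E-box.
Il1a: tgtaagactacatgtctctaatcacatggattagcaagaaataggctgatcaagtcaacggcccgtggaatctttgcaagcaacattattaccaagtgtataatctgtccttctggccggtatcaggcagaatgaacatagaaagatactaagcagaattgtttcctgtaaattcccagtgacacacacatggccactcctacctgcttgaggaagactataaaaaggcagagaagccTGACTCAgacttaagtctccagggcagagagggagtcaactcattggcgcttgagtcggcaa
Nfkbid: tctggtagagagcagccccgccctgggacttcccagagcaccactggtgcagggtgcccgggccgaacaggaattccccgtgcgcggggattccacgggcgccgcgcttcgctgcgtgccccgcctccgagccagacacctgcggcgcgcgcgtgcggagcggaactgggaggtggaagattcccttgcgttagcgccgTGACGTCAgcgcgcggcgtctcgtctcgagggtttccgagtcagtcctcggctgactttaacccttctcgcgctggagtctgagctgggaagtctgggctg
Tnfaip3: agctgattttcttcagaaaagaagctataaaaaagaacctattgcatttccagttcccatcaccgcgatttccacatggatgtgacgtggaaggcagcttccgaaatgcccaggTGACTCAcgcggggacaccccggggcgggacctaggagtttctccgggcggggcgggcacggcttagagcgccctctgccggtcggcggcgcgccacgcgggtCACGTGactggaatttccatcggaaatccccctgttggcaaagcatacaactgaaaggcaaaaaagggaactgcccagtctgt

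Of the 33 windows of raised genes, 3 held the AP-1 letters (9.09%, in Ddr1, Il1a and Il6), and of the 30 windows of lowered genes 4 did (13.3%, in Fcer2a, Slamf7, Tmod2 and Tnfaip3), against 5.2% of all 32851 windows. With the given strand alone the shares were 6.06%, 3.33% and 2.74%. The E-box, the letters that TFEB and Myc proteins bind, was found in no window of a raised gene and in 2 of a lowered gene, Pim1 and Tnfaip3 (6.67%), against 7.15% of all. The CRE was found once in each direction, in Ccer2 and Nfkbid, the NF-kB letters once, in Ms4a6c, and the EGR letters in none. Other forms of an NF-kB site were not searched for and are not marked in the windows shown. The counts therefore do not tell which windows hold an NF-kB site. They describe letters in short windows and not binding.

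Pim1 and Ccnd2 were among the lowered genes. Pim1, a serine/threonine kinase that favours survival and growth downstream of cytokine receptors, stood at 84.0 and 92.1 CPM at 0 h and at 19.2 and 16.9 CPM at 6 h (log2 difference −2.28 ± 0.18, adjusted p = 1.03e-06). It was the lowered gene with the largest difference among those with at least 10 counts on average. The reads of Pim1 may include some of the overlapping gene Gm26885, since the libraries do not keep the strand. Ccnd2, the D-type cyclin that B cells use to enter the cycle, went from 301 and 350 CPM to 137 and 135 CPM (−1.26 ± 0.09, adjusted p = 3.32e-07). Both genes were called under each of the 16 alternatives.

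Ccnd2 was the 1 called gene among 19 tested G1 cyclins, CDKs and inhibitors, of which 11 had a log2 difference above 0. Over all genes 0.385% were called, and 8085 of 15318 had a difference above 0. Ccnd1 (cyclin D1) differed by −1.37 ± 0.31 but did not pass (adjusted p = 0.0357), going from 58.2 and 44.1 CPM at 0 h to 22.7 and 16.5 CPM at 6 h. DESeq2 without shrinkage called it (adjusted p = 0.000762). Myc, the growth factor-induced transcription factor, also did not pass, at 203 and 185 CPM at 0 h against 108 and 74.3 CPM at 6 h. Its log2 difference of −1.08 ± 0.32 had an adjusted p of 0.127, and its 6 h libraries differed from each other more than its 0 h libraries did. No other member of the Myc and Max network (12 tested) was called. Axin2, a Wnt feedback gene that restrains β-catenin, fell from 12.7 and 15.2 CPM to 5.61 and 5.94 CPM (−1.28 ± 0.17, adjusted p = 0.00018).

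The surface receptor genes Cd40, Fcer2a, Cd24a and Slamf7 were lower at 6 h. Cd40, the receptor for T cell help, stood at 216 and 266 CPM at 0 h and at 111 and 123 CPM at 6 h (−1.04 ± 0.14, adjusted p = 0.00023). It fell just short of the fold limit without replicate 2 at 0 h (−0.89) or replicate 1 at 6 h (−0.99). Fcer2a (CD23), the low-affinity IgE receptor of mature B cells, went from 158 and 236 CPM to 58.8 and 71.9 CPM (−1.60 ± 0.23, adjusted p = 0.00198), and overlaps Trappc5. Its adjusted p was 0.0169 without replicate 2 at 0 h, 0.0286 without replicate 1 at 6 h and 0.0138 without replicate 2 at 6 h. Cd24a, a glycan-anchored surface protein that is high on immature B cells, went from 280 and 265 CPM to 121 and 127 CPM (−1.13 ± 0.19, adjusted p = 0.00299), and its adjusted p rose to between 0.0219 and 0.0293 when any 1 of the 4 libraries was left out. Slamf7, a receptor of the SLAM family, fell from 15.9 and 12.4 CPM to 6.5 and 5.23 CPM (−1.26 ± 0.15, adjusted p = 7.39e-05).

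Of 29 tested surface genes of B cell activation and costimulation, 3 were called lower (Cd24a, Cd40 and Slamf7) and none higher. The list does not hold Fcer2a and Sema7a, which fell, or Fcmr, Pdcd1, Alcam and Tnfrsf25, which rose. Over all genes 0.189% were called lower and 0.196% higher. The median log2 difference of the list was −0.32. Ltb (lymphotoxin β, −0.88) and Il21r (the receptor for IL-21, −0.99) passed the adjusted p but not the fold limit, as did Icam1 (an adhesion molecule, −0.75) and, upward, Cd38 (an ectoenzyme of the B cell surface, 0.69). Without the fold limit 1 gene of the list was thus higher and 6 were lower, beside 0.411% and 0.875% of all genes. Cd69, an early activation marker, did not pass, and its 6 h libraries stood far apart at 9.75 and 3.33 CPM. Cd86 was near the detection limit, with 6 and 13 counts at 0 h and 3 and 0 counts at 6 h. Sema7a, a semaphorin that binds integrins, fell by 1.35 on the log2 scale (adjusted p = 0.0027), a call lost without replicate 2 at 0 h (adjusted p = 0.0658) or without either 6 h library (0.0239 and 0.0398).

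The IgM receptor genes rose. Fcmr, the Fc receptor for IgM on B cells, stood at 9.37 and 9.11 CPM at 0 h and at 33.7 and 32.2 CPM at 6 h, a log2 difference of 1.83 ± 0.12 (adjusted p = 1.12e-07). Fcamr, which encodes a receptor for IgA and IgM, went from 2.54 and 2.67 CPM to 13.6 and 9.93 CPM (2.18 ± 0.23, adjusted p = 2.41e-05). The 2 genes lie close together on chromosome 1 of GRCm38, Fcamr at chr1:130784706-130825903 and Fcmr at chr1:130865777-130880790. The lncRNA gene Gm15848, chr1:130810004-130817398, lies within Fcamr, and its rise (2.07 ± 0.25) cannot be told apart from that of Fcamr in libraries without strand. All 3 were in the core of 23 genes.

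Other raised genes were neighbours too. Ms4a6c, a membrane protein of the MS4A family, whose best known member is CD20, rose from 2.01 and 1.67 CPM to 6.5 and 9.27 CPM (2.09 ± 0.24, adjusted p = 5.71e-05). Next to it lies Gm8369, which went from 0.27 and 0.25 CPM to 2.41 and 2.29 CPM (3.16 ± 0.44), a call lost without replicate 2 at 0 h (adjusted p = 0.0157). Ms4a6c lies at chr19:11469353-11487182 and Gm8369 at chr19:11488955-11512577. Ptprv and Ptpn7, which overlap at chr1:135108498-135132575 and chr1:135131838-135145328, rose by 2.20 ± 0.40 and 3.24 ± 0.51. Ptpn7 is a phosphatase of lymphocytes that acts on ERK and p38, and both genes stood under 2 CPM in all 4 libraries. The call of each was lost without replicate 2 at 0 h (adjusted p = 0.132 for Ptprv and 0.0481 for Ptpn7), that of Ptprv also without replicate 1 at 6 h (0.0711) and that of Ptpn7 without replicate 2 at 6 h (0.0108).

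Among transcriptional regulators, Nab2 and Elk3 were called. Nab2 encodes a protein that binds EGR factors and represses their targets. It stood at 5.35 and 5.58 CPM at 0 h and at 23.3 and 21.9 CPM at 6 h (2.05 ± 0.19, adjusted p = 4.4e-06), and overlaps Stat6. Elk3, an ETS factor that is a target of ERK, went from 2.95 and 3.22 CPM to 6.55 and 6.47 CPM (1.07 ± 0.22, adjusted p = 0.00864), a call lost without any 1 of the libraries (adjusted p from 0.0512 to 0.0919). None of the 29 tested immediate early and activation-linked transcription factor genes was called, at a median of 0.16. Egr1 itself stood at 9.1 and 10.8 CPM at 0 h and at 44.7 and 20.5 CPM at 6 h, above in both libraries, and did not pass (1.72 ± 0.85, adjusted p = 0.392). Nr4a1, an orphan receptor gene induced within the first hours of BCR signals, stood at 29.8 and 34.1 CPM and at 19.0 and 16.4 CPM (−0.85, adjusted p = 0.168).

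Cytokine and chemokine genes moved in both directions. Ccl22, a chemokine that attracts CCR4-bearing T cells, rose from 330 and 328 CPM to 770 and 616 CPM (1.08 ± 0.19, adjusted p = 0.0057), and its adjusted p lay between 0.0102 and 0.096 when 1 library was left out. Cx3cl1, the membrane-bound chemokine fractalkine, fell from 241 and 291 CPM to 116 and 106 CPM (−1.26 ± 0.12, adjusted p = 5.34e-06). These 2 genes lie near each other on chromosome 8, Ccl22 at chr8:94745684-94751388 and Cx3cl1 at chr8:94772180-94782427, and differed in direction. Il6 rose from 1.61 and 1.55 CPM to 4.48 and 4.05 CPM (1.44 ± 0.27, adjusted p = 0.00499), and Il1a from 2 counts in both 0 h libraries together to 53 counts at 6 h, a ratio of 23.3 with an exact 95% interval of 6.15 to 198 for counting error only. Both calls were lost when any 1 of the 4 libraries was left out, with adjusted p from 0.0243 to 0.0987 for Il6 and from 0.0102 to 0.116 for Il1a. Of 22 tested genes of a list of chemokines, chemokine receptors and positioning receptors that does not hold Cx3cl1, Ccl22 was the 1 called. The share called over all genes was 0.385%. Cxcr5, which guides B cells to follicles, was lower at 205 and 224 CPM against 114 and 106 CPM (−0.97, adjusted p = 3.48e-05), within the fold limit.

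Some of the 59 genes act in adhesion, guidance or the cytoskeleton, and these moved in both directions. They were grouped from the called genes for description, and such genes were not counted among all those tested. Alcam, the ligand of CD6 on T cells, rose from 2.41 and 2.36 CPM to 9.7 and 10.1 CPM (2.05 ± 0.28, adjusted p = 3.11e-04; 0.015 without replicate 2 at 0 h). Tubb6, a β-tubulin, rose from 3.68 and 2.23 CPM to 14.8 and 12.6 CPM (2.22 ± 0.31, adjusted p = 5.24e-04; 0.0289 without replicate 2 at 0 h). The scaffold gene Shank1, known from synapses, went from 16.7 and 17.7 CPM to 68.5 and 55.5 CPM (1.85 ± 0.12), with the smallest adjusted p of the comparison, 8.24e-08. Of the semaphorin receptors, Plxna3 rose from 24.6 CPM in both 0 h libraries to 60.7 and 54.1 CPM (1.23 ± 0.15) and Plxna4 fell from 23.2 and 23.1 CPM to 7.92 and 6.53 CPM (−1.67 ± 0.20). The kinesin gene Kif26a (1.49) and the collagen receptor gene Ddr1 (1.53) also rose, and the proteoglycan core gene Ncan (−1.84), the cadherin gene Cdh22 (−1.36) and the secreted protein gene Scube1 (−1.51) fell. The call of Ddr1 was lost without replicate 2 at 0 h (adjusted p = 0.0456) or replicate 1 at 6 h (0.011), and that of Cdh22 without replicate 2 at 0 h (0.0104) or at 6 h (0.0142).

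The remaining genes of the 59 had varied roles. Pdcd1, the inhibitory receptor PD-1, rose from 5.82 and 5.21 CPM to 16.6 and 11.5 CPM (1.36 ± 0.27, adjusted p = 0.00888), a call lost without either 0 h library (adjusted p = 0.0611 and 0.167) or without replicate 1 at 6 h (0.116). Tnfrsf25 (DR3), a death domain receptor, rose by 1.27 ± 0.21, a call lost without replicate 1 at 0 h (adjusted p = 0.0479) or without either 6 h library (0.022 and 0.0163). Inpp4b, a phosphatase that acts on products of PI3K, fell from 5.35 and 5.77 CPM to 1.48 and 2.29 CPM (−1.59 ± 0.21; adjusted p = 0.0103 without replicate 1 at 6 h). Rasgrp4, an activator of Ras, fell by 1.05 on the log2 scale, and Lyst, which shapes lysosome-related organelles and is mutated in beige mice, fell from 589 and 741 CPM to 284 and 294 CPM (−1.20 ± 0.16, adjusted p = 4.27e-04; 0.0102 without replicate 2 at 0 h). Hpn, a membrane serine protease, fell by 2.12 on the log2 scale, from 7.96 and 7.25 CPM to 1.72 and 1.76 CPM. Edn1 (endothelin-1) had 24 counts in the 0 h libraries together and 2 at 6 h, a ratio of 13.6 with an exact 95% interval of 3.38 to 119 for counting error only, and its adjusted p lay between 0.0438 and 0.0753 when any 1 of the 4 libraries was left out. Gm35019 and Rasgef1a each had 1 count at 0 h and 38 and 28 counts at 6 h, with intervals of their ratios reaching from 5.66 and 4.08 upward, again for counting error only. The call of Gm35019 was lost without replicate 1 at 0 h (adjusted p = 0.0227), replicate 2 at 0 h (0.015) or replicate 1 at 6 h (0.0116), and that of Rasgef1a without replicate 1 at 0 h (0.0309), replicate 2 at 0 h (0.0183) or replicate 2 at 6 h (0.0281). Of the 59 calls, 35 were lost without at least 1 of the 4 libraries. The other raised genes were Ccer2, Dhrs3, Dnah1, Endod1, Gm13421, Itm2a, Mrgpre and Ppp1r14c, with log2 differences from 1.04 to 1.75. The other lowered ones were Arhgap8, Ip6k3, Kcnj1, Rph3a, Sorcs2, Tmem132a, Tmod2 and Xylt1, from −2.10 to −1.02.

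Most pathway lists had no called member, where 0.385% of all genes tested were called. Of 38 tested genes of the BCR and its proximal signalling none was called, and Syk (954 and 1020 CPM against 638 and 642, log2 difference −0.63), Pik3r1 (−0.59) and Blk (−0.48) passed the adjusted p with smaller differences. In the list of B cell identity genes (19 tested) the same was so of Irf4 (−0.85, adjusted p = 9.4e-05) and of Pax5, the factor that maintains B cell identity (−0.46, adjusted p = 0.0045), and none was called. The 40 tested MiT/TFE factors and lysosome genes had none called, a median of 0.10 and 31 differences above 0. Over all genes 8085 of 15318 differences were above 0. Tfe3, the close relative of Tfeb, was lower at 54.1 and 59.9 CPM against 36.6 and 37.6 CPM (−0.62 ± 0.10, adjusted p = 9.61e-04). The lysosomal proton pump subunit gene Atp6v1b2 (0.35, adjusted p = 0.0126) came next and did not pass. None of 38 autophagy genes was called, at a median of 0.02.

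Cell cycle and metabolic lists had small differences in these libraries. Of all 15318 genes tested, 8085 had a log2 difference above 0 and 7209 below 0. All 29 tested DNA replication genes had a log2 difference above 0, from 0.01 to 0.37 with a median of 0.16, and none passed (Rfc3 had the smallest adjusted p, 0.128). Of 24 genes of cholesterol synthesis and uptake 23 lay above 0, at a median of 0.22, and none passed (Sc5d, 0.39, adjusted p = 0.0176). Of 32 ribosome biogenesis genes 27 lay below 0, at a median of −0.18, and none passed (Rrp1b, −0.57, adjusted p = 0.0615). No member was called among 28 mitosis genes (Mki67, −0.35, adjusted p = 0.0851), 22 Bcl-2 family genes (Bid, −0.36, adjusted p = 0.0614), 18 p53 targets (Pmaip1, −0.49, adjusted p = 0.123), 24 interferon-stimulated genes (median −0.14), 25 genes of ER stress and the ATF4 response (Atf5, −0.42, adjusted p = 0.0286) or 62 cytosolic ribosomal protein genes (median 0.01). The 16 MHC class II and loading genes (H2-Eb1, −0.67, adjusted p = 0.111), the 14 ERK feedback regulators (Spred2, −0.53, adjusted p = 0.0295; Dusp4, 1.45, adjusted p = 0.047) and the 27 FoxO, Klf2 and quiescence-linked genes had none either. In the last list Sgk1, a kinase induced by PI3K and stress signals, was higher at 12.4 and 12.1 CPM against 5.56 and 6.76 CPM (0.99, adjusted p = 0.0098).

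**Figure D3:**
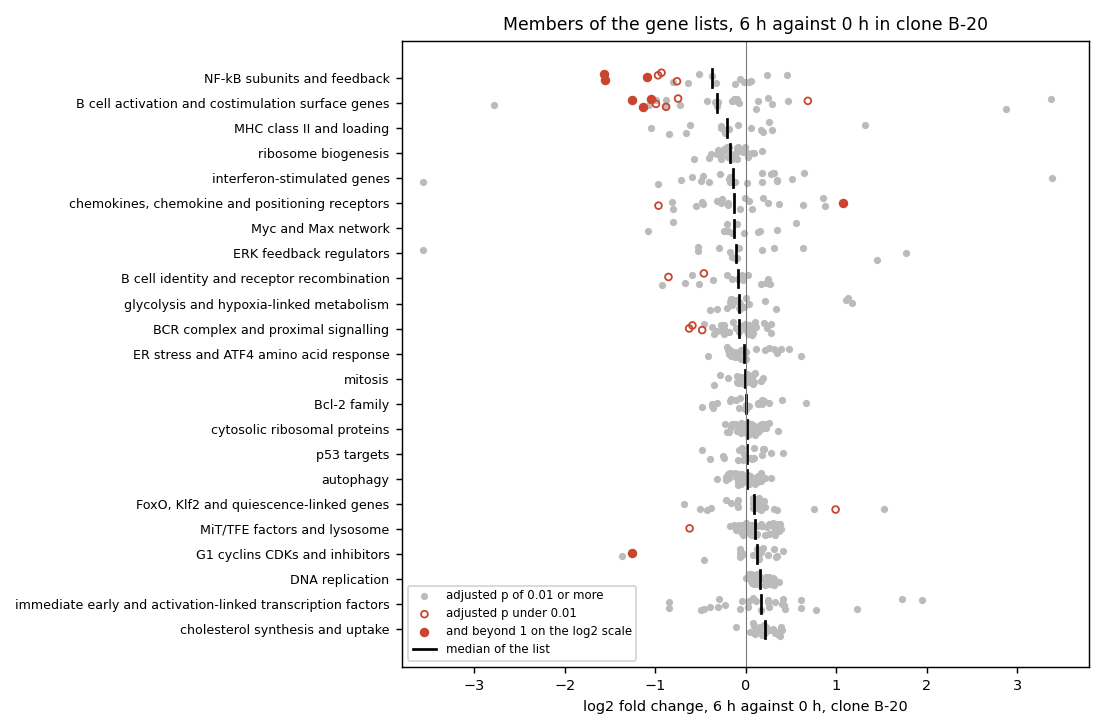
log2 fold change of each tested member (points, horizontal axis) of 23 gene lists (rows, in order of their medians, shown as black bars) at 6 h against 0 h in clone B-20; open red points passed the adjusted p of 0.01, filled red points also the fold limit. The list of NF-kB subunits and feedback genes has the lowest median, −0.37, and 3 filled points.

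In the glycolysis and hypoxia-linked list (24 tested, none called), the replicates of some genes stood far apart at both times. Eno2 stood at 26.4 and 10.4 CPM in replicates 1 and 2 at 0 h and at 50.2 and 29.5 CPM at 6 h, and Egln3 at 35.0 and 10.0 CPM and at 68.3 and 27.4 CPM. Of the genes that were to be given whatever their result, Ccr7, Cxcr4, Bcl2l15, Ciita and Bcl2l1 had adjusted p from 0.357 to 0.993. Ccr7 stood at 0.669 and 0.62 CPM and at 0.492 and 1.05 CPM, and Cxcr4 at 19.7 and 12.5 CPM and at 17.4 and 14.5 CPM, with groups that overlapped. Il7r and Hrk had 0 counts in 3 of the 4 libraries and 1 count in replicate 2 at 6 h, too few to test.

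The values at 18 h in the same clone, set beside those at 6 h, share the 0 h libraries and are given without a comparison of the responses. Some genes stood at 18 h near their 6 h level. Fcmr had 35.4 and 39.0 CPM at 18 h, Nab2 19.1 and 23.1 CPM, Shank1 79.3 and 81.0 CPM, Nfkbid 170 and 141 CPM, Pim1 25.7 and 17.5 CPM and Ccnd2 153 and 163 CPM. Others stood near their 0 h level, among them Alcam at 2.38 and 4.85 CPM, Tubb6 at 3.13 and 3.21 CPM, Fcer2a at 209 and 274 CPM, Plxna4 at 26.6 and 19.5 CPM and Sema7a at 18.4 and 21.5 CPM. Ccl22 at 171 and 182 CPM and Il6 at 0.75 and 1.16 CPM were below their 0 h values at 18 h, and Rasgrp4 at 36.5 and 31.9 CPM above.

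Parental cells and clone #A-59, which share no library with clone #B-20, gave the same direction for nearly all of the 59 genes. All 30 raised genes had a log2 difference above 0 in parental cells and 21 were called higher there, where 1.17% of all genes were. All 29 lowered genes lay below 0 in parental cells and 26 were called lower, against 1.46% of all genes. In clone #A-59, 29 of the 30 raised genes lay above 0 and 17 were called (0.594% of all genes), and all 29 lowered genes lay below 0 and 25 were called (0.796%). Pdcd1 was the exception, at −0.26 ± 0.25 in clone #A-59 where it went from 12.1 and 9.68 CPM to 10.3 and 7.85 CPM. Over all 15318 genes the 6 h differences of clone #B-20 correlated with those of parental cells at r = 0.352 and with those of clone #A-59 at r = 0.362, across genes, which are not independent.

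The number of called genes was lowest in clone #B-20, 59 against 402 in parental cells (2.62%) and 213 in clone #A-59 (1.39%). The 0 h and 6 h libraries held 15014347 to 20025225 counts in clone #B-20 and 22416854 to 27571177 in parental cells. In clone #A-59 they held 16328945 to 29655262. The part of depth in these numbers of calls was not tested. Since genes chosen in 1 genotype are larger there by the choice, the sizes were also set side by side for genes chosen elsewhere. Over the 91 genes called higher in clone #A-59, the median log2 difference was 0.83 in clone #B-20 and 0.96 in parental cells, and over the 122 called lower −0.80 and −0.92. Over the 179 and 223 genes called in parental cells, the medians were 0.79 and −0.63 in clone #B-20 and 0.89 and −0.63 in clone #A-59. Between the 6 h replicates the chi-square per degree of freedom, which grows with depth, was 67.1 in clone #B-20, 3.92 in parental cells and 37.9 in clone #A-59. In clone #B-20 it took in the 20 genes raised in replicate 2 at 6 h. The largest of them had 33194 counts in replicate 1 and 456707 in replicate 2. Their part in the 67.1 was not tested. The SD over genes of the log2 difference between the 6 h replicates lay closer together, at 0.481, 0.317 and 0.457. The part of this spread in the number of called genes was not tested.

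**Figure D4:**
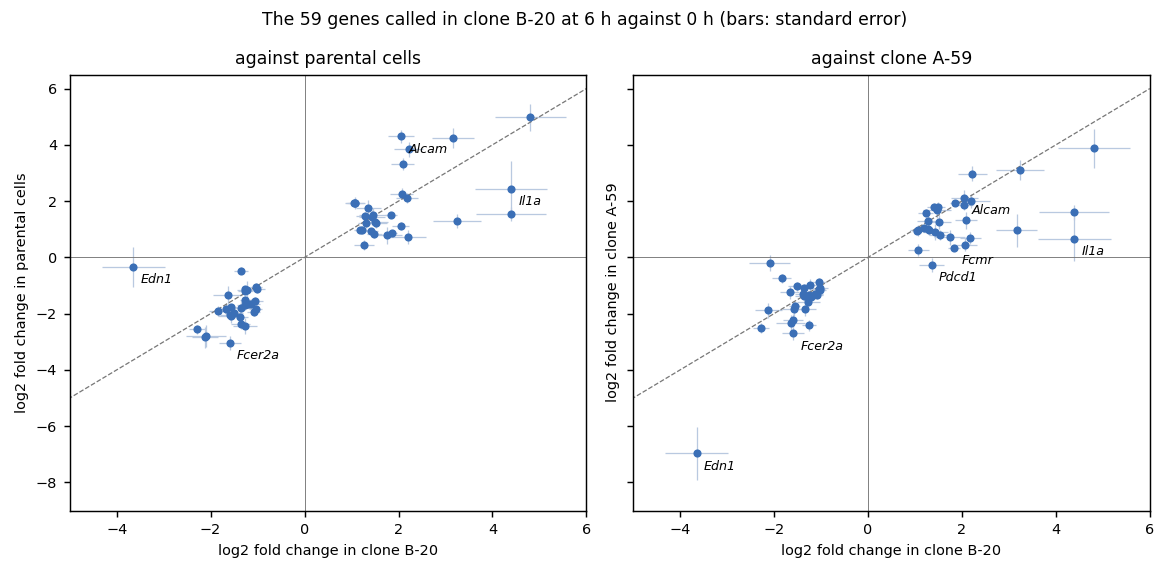
log2 fold change at 6 h against 0 h of the 59 genes called in clone B-20 (horizontal axis) against that in parental cells (left) and in clone A-59 (right), with standard errors as bars and a dashed line of equal values. All points but Pdcd1 on the right lie in the quadrants of equal direction.

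Whether the response of clone #B-20 differed from that of parental cells was tested by the interaction of genotype and time in the same fit. It was called for 20 genes (0.131%), 7 with a positive and 13 with a negative difference of the log2 changes (0.0457% and 0.0849%). Among the positive ones were genes that fell in parental cells and stayed within the fold limit in clone #B-20. Ltb fell in parental cells from 435 and 534 CPM to 94.0 and 97.7 CPM and stood in clone #B-20 at 353 and 465 CPM and at 205 and 240 CPM, a difference of 1.46 ± 0.19 (adjusted p = 0.00135). Grap2, an adaptor of antigen receptor signalling, fell from 240 and 264 CPM to 96.0 and 96.1 CPM in parental cells and stood in clone #B-20 at 219 and 230 CPM and at 166 and 178 CPM (1.0 ± 0.11, adjusted p = 2.84e-04). Niban3 (1.03) differed the same way, while Cacna1i (1.22) and Nbea (1.02) had log2 differences of −1.38 and −0.98 in parental cells and of −0.16 and 0.04 in clone #B-20. Icosl, the ligand of the T cell receptor ICOS, stood at 6.33 and 6.7 CPM in untreated parental cells and at 2.88 and 2.7 CPM at 6 h, against 6.36 and 8.18 CPM and 10.5 and 9.67 CPM in clone #B-20 (1.69 ± 0.25, adjusted p = 0.00279).

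The negative differences included genes that rose in parental cells and did not pass the test in clone #B-20. Scd4, a fatty acid desaturase, rose from 0.759 and 1.08 CPM to 26.8 and 28.2 CPM in parental cells and stood under 1 CPM in the 4 libraries of clone #B-20 (−4.46 ± 0.52, adjusted p = 4.26e-04). Lztfl1 rose from 26.9 and 23.8 CPM to 91.8 and 98.1 CPM in parental cells and stood at 14.8 and 15.7 CPM and at 14.1 and 12.7 CPM in clone #B-20 (−2.09 ± 0.23, adjusted p = 2.84e-04). Snx18 (−1.62), Ppfibp2 (−1.73) and Prxl2a (−1.81) differed likewise, each with a log2 difference above 0 in clone #B-20 that did not pass. Hivep1, a zinc finger factor that binds NF-kB motifs, stood in parental cells at 132 and 126 CPM and at 176 and 166 CPM, and in clone #B-20 at 100 and 121 CPM and at 68.3 and 65.2 CPM, a difference of −1.14 ± 0.15 (adjusted p = 0.00128). Alcam was called in both comparisons: it rose in clone #B-20 (above), but less than in parental cells, where it went from 2.89 and 3.27 CPM to 57.1 and 64.6 CPM (−2.25 ± 0.39, adjusted p = 0.00906).

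The interaction rested on single libraries in many genes. It was called for 2 genes without replicate 2 of the untreated parental cells, and for 7 to 19 genes when another of the 8 libraries was left out. The number was 7 without replicate 1 and 11 without replicate 2 of untreated clone #B-20, 19 without replicate 1 and 8 without replicate 2 of the same clone at 6 h, and 13, 9 and 11 without parental replicate 1 at 0 h and replicates 1 and 2 at 6 h. No difference changed sign. Alcam, Mreg and Celf2 lost their interaction calls when any 1 of the 8 libraries was left out. Icosl lost its call in each of these fits but that without replicate 2 of untreated clone #B-20. Of the called genes only Lztfl1 kept its call in all of them. Ltb, Scd4, Hivep1 and Snx18, among others, each lost it in at least 1. Grap2, at the fold limit, lost it in several of them, and also with DESeq2 without shrinkage, with no filter on low counts and with the GC correction.

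Between clones #B-20 and #A-59 the response differed in 1 gene, Fcmr (0.00653% of those tested). It rose in clone #B-20 as given above and in clone #A-59 went from 35.3 and 31.7 CPM to 42.2 and 42.2 CPM, a difference of the log2 changes of 1.5 ± 0.16 (adjusted p = 4.59e-04). The adjusted p was 0.0134 without replicate 2 of untreated clone #B-20 and 0.0228 with the libraries of the groups compared alone. Fcmr was thus not called by edgeR in either fit. With the libraries of the groups compared alone no gene was called, and 607 of 14188 genes had an unadjusted p under 0.05. DESeq2 without shrinkage called 7 genes over all libraries. Parental cells raised Fcmr from 61.1 and 70.3 CPM to 187 and 188 CPM, which did not differ from the change of clone #B-20 in the test (0.32 ± 0.16, adjusted p = 0.711). The neighbouring Fcamr showed a difference of similar size between the clones, 1.48 ± 0.32, that did not pass (adjusted p = 0.136).

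**Figure D5:**
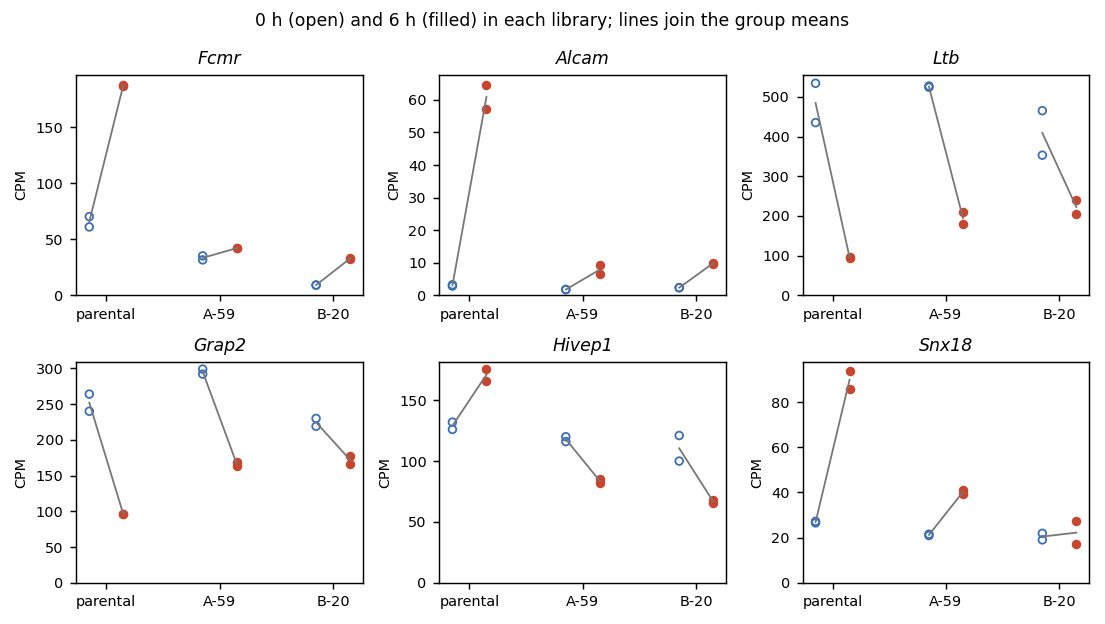
CPM (vertical axes, from 0) of 6 genes in each library of parental cells, clone A-59 and clone B-20 at 0 h (open) and 6 h (filled), with lines between the group means. Fcmr rises in parental cells and clone B-20 and from 35.3 and 31.7 to 42.2 and 42.2 CPM in clone A-59, and Alcam reaches 57.1 and 64.6 CPM in parental cells, 6.63 and 9.24 in clone A-59 and 9.7 and 10.1 in clone B-20.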

How the data were processed

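RNA of WEHI-231 cells was sequenced in 18 libraries, of which the 4 of clone #B-20 at 0 and 6 h make up the comparison. The authors deposited raw counts of reads per Ensembl gene, which were used as deposited. As the methods state, non-stranded mRNA libraries were read single-end, aligned with STAR to GRCm38 and counted with featureCounts. The submitters' processing notes name STAR 2.5, featureCounts 1.5.0-p1 and bcl2fastq 2.20.0.422. Without strand, reads from a stretch where genes overlap cannot be told apart by gene. The methods do not state how such reads, or reads that fit close paralogs, were counted.

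edgeR 4.0.16 (R 4.3.3) was used for all tests. The 15318 of 55487 genes that passed filterByExpr were scaled by TMM and fitted with 1 mean for each of the 9 groups over all 18 libraries (9 residual degrees of freedom) by the robust quasi-likelihood method. P-values were adjusted over all genes by the Benjamini-Hochberg method. Genes with an adjusted p under 0.01 and a log2 fold change beyond 1 were called, and standard errors are the fold change divided by the root of F. Fewer cells of a type and less RNA per cell cannot be told apart in such libraries. Genes given in full were a set of genes the study names, the 15 largest called rises and falls with at least 10 counts on average, called list members, the members with the smallest p of other lists, and called interaction genes. Uncalled genes outside this rule, such as Ccnd1, Cd69, Cd86, Egr1, Egln3, Eno2, Nr4a1 and the NF-kB subunits, were chosen after their values were seen. The members and the gene lists were chosen with earlier results of these data known. Names came from GENCODE vM39 (51731 genes) and positions and promoters from RefSeq on GRCm38.p6.

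Alternatives were DESeq2 1.42.0 with and without betaPrior, its size factors in edgeR, other filters, fewer libraries in the fit, the replicate number as a block, a GC correction (loess, span 0.5), ribosomal RNA genes left out, and each library left out. In simulated counts 200 genes were changed by 2 on the log2 scale. The fit recovered 91% in the comparison of 6 h with 0 h in clone #B-20, with 0 false calls among 14797 genes. It recovered 85% and 80% in the interactions with parental cells and clone #A-59, with 1 false call in each. The simulation used the spread estimated by the fit itself and 1 mean profile for all groups, without an outlying library. It therefore cannot give the rate of false calls in the real libraries or the recovery of smaller changes.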

Additional observations from a re-analysis of the deposited data

Results flagged for a closer look

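The response to 6 h of stimulation differed between clone #B-20 and parental cells in 20 genes and between clones #B-20 and #A-59 in 1 gene, by the interaction term of the fit over all libraries. Against parental cells, the differences of the log2 changes were 1.69 for Icosl, 1.46 for Ltb, 1.22 for Cacna1i, 1.07 for Trpm5, 1.03 for Niban3, 1.02 for Nbea and 1.0 for Grap2. The negative ones were −4.46 for Scd4, −3.23 for Kifc3, −2.62 for Gm6145, −2.25 for Alcam, −2.09 for Lztfl1, −1.81 for Prxl2a, −1.73 for Ppfibp2, −1.62 for Snx18, −1.36 for Mreg, −1.22 for Celf2, −1.15 for Rbm47, −1.14 for Hivep1 and −1.11 for Irs2. Against clone #A-59 the difference was 1.5 for Fcmr. Of the genes that differed from parental cells, only Lztfl1 kept its call in every fit with 1 library left out. Alcam, Mreg and Celf2 lost theirs in all of these fits.

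Several of these genes already differed between untreated cells. Kifc3 stood at 9.44 and 10.5 CPM in untreated parental cells and at 1.27 and 0.558 CPM in untreated clone #B-20, and Irs2, an adaptor of insulin receptor signalling, at 160 and 163 CPM against 40.0 and 36.7 CPM. Rbm47 differed the other way, with 3.36 and 3.6 CPM against 17.7 and 17.9 CPM, as did Celf2, with 43.9 and 51.6 CPM against 150 and 162 CPM. Trpm5, a cation channel, stood at 474 and 505 CPM in untreated parental cells and at 155 and 141 CPM in clone #B-20. The part of these starting levels in the differences of response was not tested.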

How the results depend on the processing

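No called gene of the 6 h response changed direction under any of the 16 alternatives, and 23 of the 59 were called under all, 35 losing the call under at least 1. Hpn kept it except with DESeq2 without shrinkage, which gave it no adjusted p. DESeq2 without shrinkage kept 47 of the 59 calls and added 10. Besides Hpn it did not call Dnah1, Edn1, Gm13421, Gm35019, Gm8369, Il1a, Il6, Kcnj1, Ptpn7, Ptprv or Rasgef1a. The count moved by more than 1.5 times with no filter on low counts (97 genes, 55 higher), with the GC correction and the replicate block together (93 genes, 50 lower) and with no fold limit (197 genes, 63 higher and 134 lower). With the libraries of clone #B-20 alone, 19 genes were higher. Leaving out 1 library gave 27 to 66 genes, with 12 to 44 higher and 15 to 35 lower.

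The replicate numbers may pair the libraries by experiment, which the labels do not state. Deviations of equally numbered libraries correlated at 0.112 between 0 h and 6 h of clone #B-20. With the replicate block 74 genes were called, including all 59. The block called Myc (−1.11, adjusted p = 0.00039; 0.00268 with the GC correction too) and Ccnd1 (−1.38, 5.82e-05; 6.66e-05), so that 1 gene of the Myc and Max network and 2 of the G1 genes were called. It also called 34 (17 positive) and 6 genes in the interactions with parental cells and clone #A-59.

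The interaction with parental cells gave 34 genes with DESeq2 (13 positive, 21 negative), 65 without a filter (42 and 23), 37 with the GC correction and the replicate block (13 and 24), and 2 to 19 with 1 library left out (0 to 10 positive, 2 to 9 negative). That with clone #A-59 gave 7, 16, 7 and 0 to 9 genes under these settings, and 0 with the libraries of the groups compared alone. Of the named genes that were not called, 4 changed sign when 1 library was left out. Cxcr4 ranged from −0.31 to 0.34 with a value of 0.10 without replicate 2 at 6 h, Bcl2l15 from −0.22 to 0.21 (0.06 without that library), Ccr7 from −0.39 to 0.68 and Ciita from −0.091 to 0.20. The cause of these changes was not tested. With 2 libraries per group, counts of called genes depend on single libraries, and genes under about 3 counts cannot be compared at this depth.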
